A study of Mus musculus with 6 samples.

Results

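YTHDC1 LACE-seq peaks of C2C12 myoblasts that lie outside annotated genes were examined. A peak was included when it was called in replicate 1, shared 1 nt or more with a replicate 2 peak of its strand, lay on chromosomes 1 to 19, X or Y, overlapped no mm9 GENCODE gene on either strand, and had no run of 10 or more G within 20 nt on the deposited strand. Replicate 1 held 60540 peaks and replicate 2 held 71992, and 29087 of the replicate 1 peaks (48%) were shared. Of these, 28715 lay on the chromosomes used, 5716 of them outside genes, and 257 of those were removed for a G run. This left 5459 intergenic peaks, 19.4% of the 28078 shared peaks without a G run, and the remaining 22619 lay inside genes. Asking for an overlap of 10 nt gave the same 5459 peaks, and removing runs of 8 or more G gave 5443, whereas a deposited p of at most 0.0001 or 0.00001 in both replicates left 1929 or 931. Near the gene boundary, 176 of the intergenic peaks lay within 100 nt of a gene.

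The C2C12 libraries came from a mouse myoblast cell line labelled WT, and the ASC-48h libraries used for comparison from satellite cells activated in culture, also labelled WT. Cells were irradiated with UV, YTHDC1 was pulled down with 1 antibody, and cDNA synthesis ended where the protein was crosslinked. The labels call the C2C12 libraries bio1 and bio2, whereas the study's text calls them technical replicates, so the spread given here may be technical. ASC-48h had 2 biological replicates with 2 technical replicates each. A shared ASC-48h peak was a bio1 tech1 peak that overlapped one of bio1 tech2 and also a bio2 tech1 peak that overlapped one of bio2 tech2. Neither an input nor a library from cells lacking YTHDC1 was analysed here, and because the lists hold peaks rather than expression levels, the identity of the cells was not checked against marker genes. The RNA lies on the strand opposite to the deposited one, and all strands below are those of the RNA.

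YTHDC1 is the nuclear reader of N6-methyladenosine, and it binds nascent and processed RNAs in the nucleus. RNA outside annotated genes arises in several known ways: the polymerase reads on past the end of a gene, it starts upstream of or opposite to a promoter, it copies retroelements such as SINEs and LTR elements, or it transcribes tRNA and rRNA genes that a gene annotation can omit. Retroelements and processed pseudogenes exist as many near-identical copies, so a short read from one of them can be placed at several positions. The authors kept up to 10 positions per read, and therefore reads at a sequence with several copies cannot be assigned to one of them.

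Sequences of a part of the 10 highest intergenic peaks are shown for the kinds of RNA that they resemble. Of the rest, the peak at chr13:66487021-66487040 was not assigned to a kind of RNA. Each is given on the RNA strand from 5′ to 3′ in mm9, with the 20-nt bin of the peak in capitals and the next 10 nt in lower case.
chr15:102221721-102221740 (+): GACTGAGACTGCCGGTAGTGgtggcgcacg
chr17:39983601-39983620 (+): TAGATAACCTCGGGCCGATCgcacgccccc
chr4:149191821-149191840 (+): GGTATTGAGAGTCACAGCTGgtctacggcc
chr12:4789661-4789680 (+): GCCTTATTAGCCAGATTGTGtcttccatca
chr6:44742921-44742940 (+): GGATACTTAGATGGTGAACTatgcctgggc
chr5:31190501-31190520 (+): ATATGGTAATCCTTAGGTCGctggttcgat
chr5:61612381-61612400 (+): TGCAATTGGGCTGGAGAGATggctcagccg
The chromosome 15 sequence runs into letters known from the start of the B1 SINE, and that on chromosome 5 at 61612381 into those of the B2 SINE. On chromosome 17 the letters are known from 18S rRNA and at 44742921 on chromosome 6 from 28S rRNA. The chromosome 4 bin ends 1 nt before the annotated 5S rRNA gene n-R5s193, whose letters begin in the lower-case part. The chromosome 12 bin has a copy in an exon of Tuba1b, an alpha-tubulin gene, and the bin at 31190501 on chromosome 5 holds part of a tRNA. The rRNA and SINE names rest on textbook knowledge of these sequences and not on a repeat annotation.

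Among the 5459 peaks, 4599 different central 20-nt sequences were found, and the 5 carried by most of them are shown because they are shifted windows of 1 stretch. No base is singled out, so all are in lower case.
carried by 28 peaks: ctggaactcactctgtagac
carried by 25 peaks: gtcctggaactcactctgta
carried by 22 peaks: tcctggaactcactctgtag
carried by 20 peaks: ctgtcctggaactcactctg
carried by 19 peaks: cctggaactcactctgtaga
These letters are known from the complement of the B1 SINE, a short retroelement derived from 7SL RNA. They occur 46099, 44693, 46218, 43573 and 46702 times in mm9, counting both strands. Of the peaks that carry the first sequence 27 had RNA on the - strand and 1 on the + strand, and for the other 4 sequences every peak had RNA on the - strand. Their mean reads per bin ran from 6 to 13, and none was found in any ASC-48h library.

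The deposited value of a peak is its number of reads per 20-nt bin, averaged over the bins of a wider peak, and 4874 of the intergenic peaks were a single bin. Both libraries listed peaks from 6 reads upwards. The median intergenic peak had 8 reads per bin in each replicate, with a highest value of 53 in replicate 1 and 55 in replicate 2, and the peaks inside genes also had a median of 8 in each, with highest values of 62 and 64. Across the 5459 peaks, Pearson's r of log2 reads between the replicates was 0.65, and it was 0.54 across those inside genes. These are descriptions over peaks that had to be called in both lists. Before sharing was required, 5459 of 10980 intergenic peaks of replicate 1 (49.7%) and 5462 of 15822 of replicate 2 (34.5%) were found in the other list. Inside genes these shares were 46.8% of 48310 and 41.3% of 54768. In replicate 1 the share found rose with the number of reads, from 41.9% of 9061 intergenic peaks under 10 reads to 85.9% of 1811 with 10 to 19 reads and 97.2% of 108 with 20 or more. In replicate 2 the same shares were 27.1%, 80.5% and 98.4%. The weakest intergenic peaks were thus the least often found again in either replicate.

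The strands were unequal. RNA on the - strand accounted for 3240 intergenic peaks and RNA on the + strand for 2219 (40.6%, 95% interval 39.3 to 42.0%), whereas 54.8% of the peaks inside genes were on the + strand, a difference of -14.2 points (interval -15.6 to -12.7). The direction turned with the number of genomic copies of the peak's sequence, since among peaks with 1 copy 62.6% outside and 58.8% inside genes were on the + strand, a difference of 3.84 points (interval 0.724 to 6.87), and with more than 10 copies 30.7% and 35.1%, a difference of -4.37 points (interval -6.65 to -2.09). All intervals here are exact Clopper-Pearson or, for differences, Newcombe intervals at 95%, and they cover counting error across peaks, which are not independent replicates. Among peaks with RNA on the + strand, the median was 9 reads per bin in each replicate. On the - strand it was 7 in replicate 1 and 8 in replicate 2. No peak with RNA on the - strand exceeded 20 reads per bin in any of the 6 libraries, inside or outside genes, while on the + strand the highest value of a library lay between 46 and 64. The plot of reads per bin by strand shows this bound. Consequently all 92 intergenic peaks with a mean of 20 or more had RNA on the + strand, and the highest peaks on the - strand are also listed separately below. The rankings within groups and genes pool both strands, so the bound applies to them too. The cause of the bound was not tested.

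**Figure D1:**
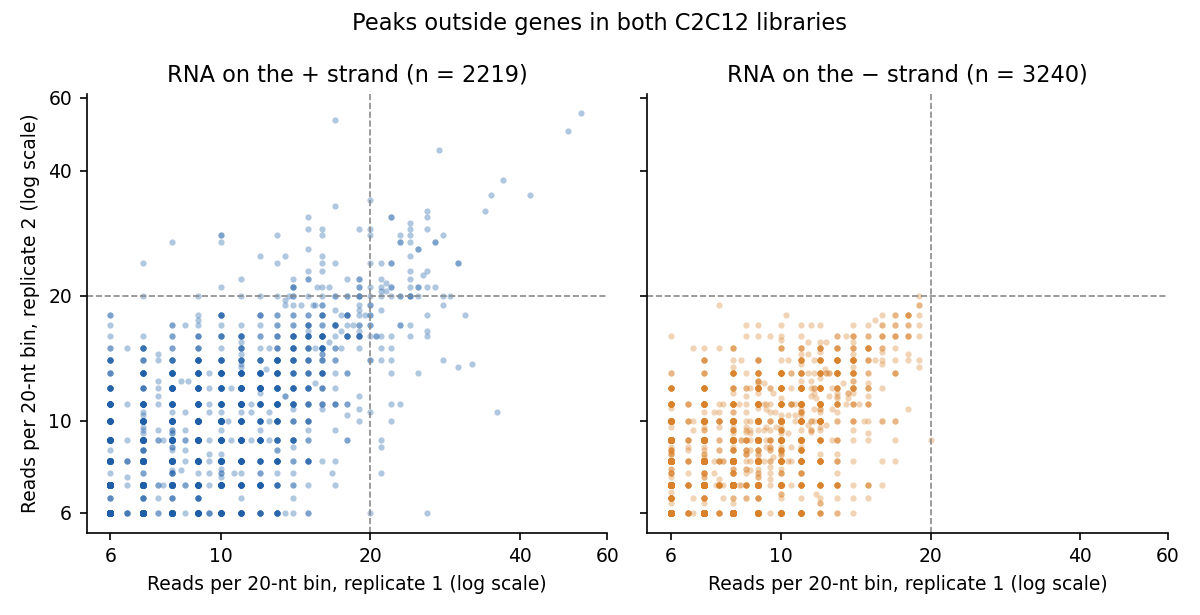
Reads per 20-nt bin in C2C12 replicate 1 (x, log scale) and replicate 2 (y, log scale) for the 5459 intergenic peaks, 1 point per peak, split by the strand of the RNA; dashed lines mark 20 reads. Peaks with RNA on the + strand reach 53 and 55 reads, and those on the - strand stop at 20.

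The highest intergenic peak, chr15:102221721-102221740, had 53 reads per bin in replicate 1 and 55 in replicate 2. It lay 6122 nt past the end of Gm17671 on the other strand, and in ASC-48h it was called with 10, 10 and 23 reads in bio1 tech2, bio2 tech1 and bio2 tech2 but not in bio1 tech1. A peak at chr18:40952361-40952380 had 50 reads in each replicate and 8435 nt separated it from 7SK. Both had 1 genomic copy of the bin, but 37 and 36 copies of the next 20 nt on the 3′ side. At chr17:39983601-39983620 there were 42 and 35 reads, with 26, 8, 22 and 26 reads in the ASC-48h libraries bio1 tech1, bio1 tech2, bio2 tech1 and bio2 tech2. The peak beside n-R5s193 had 37 and 38 reads, and 26, 35, 13 and 21 reads in the same ASC-48h libraries. The replicates thus differed by at most 7 reads at these 4 peaks.

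Of the 10 highest peaks, the 28S-like peak on chromosome 6 and its neighbour had the largest differences between replicates. At chr6:44742921-44742940 replicate 1 had 17 reads per bin and replicate 2 had 53, or 35 ± 25.5 (SD, n = 2). In ASC-48h the same peak had 38, 25, 52 and 62 reads. The neighbouring peak chr6:44743081-44743120 had 27.5 and 45 reads in C2C12, or 36.25 ± 12.4 (SD, n = 2), and 30, 42, 38 and 30 reads in ASC-48h. The nearest gene, Cntnap2, began 266940 nt away. The Tuba1b-like peak chr12:4789661-4789680 had 35 reads in each replicate and was found in no ASC-48h library. The tRNA-like peak chr5:31190501-31190520 had 34 and 32 reads, began 547 nt before Agbl5, and was found in all 4 ASC-48h libraries with 21, 30, 20 and 11.5 reads. The B2-like peak chr5:61612381-61612400 had 26 and 32 reads and lay 503703 nt from the nearest gene. At chr13:66487021-66487040 there were 26 and 31 reads over a sequence with 155 copies. Of these 10 highest peaks 7 had 1 copy of the bin, but 6 of those 7 had more copies on the 3′ side, and only the chromosome 17 peak had 1 copy of the bin and of the 20 nt on both sides. On the - strand the highest were chrX:152877001-152877020 with 19 and 20 reads and 9024 copies, chr1:83232281-83232300 and chrX:102369161-102369180 with 19 reads in each replicate and 631 and 293 copies, chr13:113385021-113385040 with 19 and 18 reads and a copy in an exon of Tuba1a, and chr11:48670521-48670540 with 18 reads in each. Of these 5, the chromosome 11 peak was a shared ASC-48h peak. None of the 5 had 1 genomic copy.

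Most intergenic peaks lay on sequences with several copies. The central 20 nt of the peak occurred once in mm9 in 1011 intergenic peaks (18.5%, interval 17.5 to 19.6%) and in 70.3% of the peaks inside genes (interval 69.7 to 70.9%), a difference of -51.8 points (interval -53.0 to -50.6), against 60.3% of all 28078. Sequences with 2 to 10 copies made up 22.9% of intergenic peaks and 15.03% of those inside genes. More than 10 copies were found for 58.5% against 14.6%, and more than 1000 for 13.5% against 2.997%. The median was 18 copies outside genes and 1 inside, and the most frequent intergenic sequence occurred 492516 times. The share with 1 copy was 28.5% among intergenic peaks with RNA on the + strand and 11.7% on the - strand. When 1 copy was required of the bin and of the 20 nt on both sides, 530 intergenic peaks remained (9.71%), against 61.2% inside genes, and these 530 are called uniquely placed below.

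**Figure D2:**
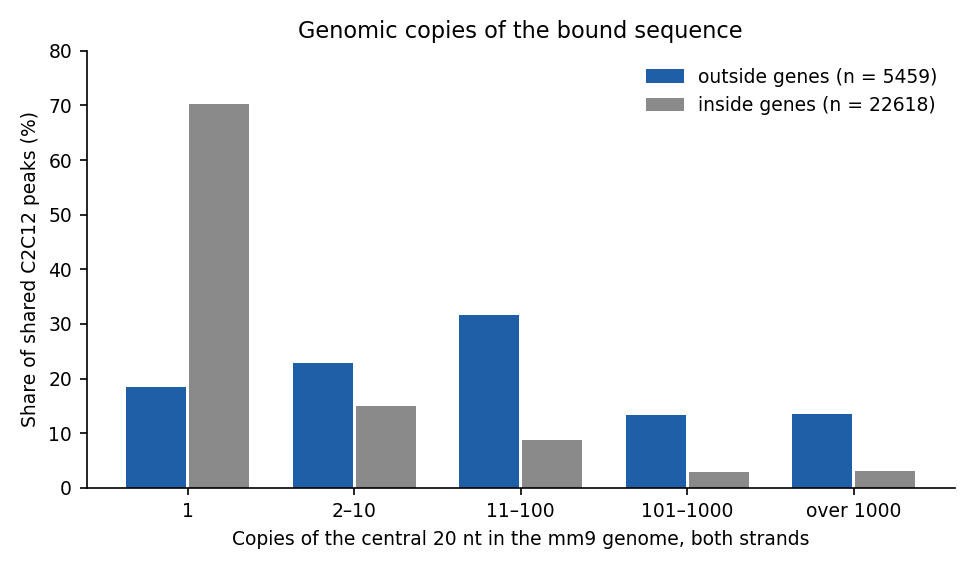
Share of shared C2C12 peaks (y, percent) by the number of copies of the central 20 nt in mm9 on both strands (x), for peaks outside and inside genes; 1 peak inside genes has no copy number. Bars at 1 copy stand at 18.5% outside and 70.3% inside genes, and bars over 1000 copies at 13.5% and 2.997%.

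Around the 1-copy intergenic peaks, copies lay more often on the side of higher coordinates. With RNA on the + strand, 287 of 633 (45.3%, interval 41.4 to 49.3%) had more than 1 copy of the 20 nt on the 3′ side and 144 (22.7%, interval 19.5 to 26.2%) of those on the 5′ side. With RNA on the - strand it was the reverse, 138 of 378 (36.5%, interval 31.6 to 41.6%) on the 5′ side and 88 (23.3%, interval 19.1 to 27.9%) on the 3′ side. Inside genes these shares lay between 6.48% and 9.54%. An offset of the same kind was seen between strands in groups of similar sequences. Peaks that shared a 20-nt stretch were joined into families, and 14 of the 15 largest families had both strands. In 13 of these 14 the median bin with RNA on the + strand lay further 5′ in the shared sequence than the median bin on the - strand. The median distance over the 14 was 21.25 nt. Only part of the bins had an offset, in the largest family 35 of 215 on the + strand and 374 of 851 on the - strand. The ranges of single bins overlapped in some families, as in the fourth, with quartiles of 3 to 18 nt and -79 to 26.75 nt. Whether the authors' placement of read ends gave this offset was not tested.

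There were 394 families of 2 or more peaks, which held 4277 of the 5459 peaks, and 1182 peaks shared no 20-nt stretch with another. The largest family had 1066 peaks (19.5%) in 1055 separate places, with 215 on the + strand and 851 on the - strand, a median of 485 copies and means of up to 29 reads per bin. It held the B1-complement sequences given above. The second, of 126 peaks with a median of 8846 copies, had 112 on the - strand and was found in no ASC-48h library, where a count of 0 allows a share of up to 2.38% by 3 counts of the total and up to 2.89% by the exact interval. Families differed in where they were found again. Of the 76 peaks of the fifth family, 52 were found in ASC-48h bio2 tech2, 13 in bio2 tech1, 1 in bio1 tech2 and none in bio1 tech1. The sixth family gave 37 of 58 in bio2 tech2 and none in the other 3 libraries, and the tenth 36 of 51 in bio2 tech2 and 10 in bio2 tech1. The list of bio2 tech2 is the only one that goes down to 4 reads per bin. The seventh family, with all 57 peaks on the + strand, and the eleventh, with 46 peaks, were found in none of the ASC-48h libraries. In total 433 sequences were carried by several peaks, 1293 peaks in all, and for 32 of these sequences all carriers had equal reads in each replicate.

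The largest clusters were copies of 1 long repeated sequence. A cluster was a run of intergenic peaks of 1 strand with gaps of at most 1000 nt. There were 2884 lone peaks, 298 pairs and 313 clusters of 3 or more, which held 1979 peaks (36.3%, interval 34.98 to 37.5%). The share was 17.7% at gaps of at most 200 nt and 14.1% at a deposited p of at most 0.00001 in both replicates. Inside genes the share was 47.5%, a difference of -11.2 points (interval -12.6 to -9.76), and over all 28078 peaks it was 45.3%. Among 1-copy peaks the difference was -22.3 points (interval -24.98 to -19.4), and among peaks with more than 10 copies it was 1.81 points (interval -0.572 to 4.19). Of the 42 clusters with 10 or more peaks, 28 held no 1-copy peak. The largest, chr2:15942161-15950640 (-), had 41 peaks with 6 to 12.5 mean reads per bin and 2 to 109 copies, and the highest had 11 and 14 reads. Next in size were chr1:24618401-24623000 (-) with 37, chr6:73236821-73243620 (-) with 32, chr13:21904601-21912000 (+) with 31 and chr4:15163381-15169220 (-) with 28 peaks. The other 5 of the 10 largest were chr10:4622021-4628300 (-) with 24, chr5:43599841-43605760 (+) with 23, chr4:107820861-107826980 (-) and chr5:110331081-110336620 (-) with 22 each, and chr10:8264921-8270580 (-) with 19. Among these 10 the cluster on chromosome 1 resembled mitochondrial DNA, and the other 9 were flanked by direct repeats of 697 to 745 nt with identities of 99.5 to 100%, spanning 6606 to 9046 nt with the repeats. A pair of direct repeats around an internal region is the layout of an LTR retroelement, and no repeat annotation was used to name it.

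The sequence between and including the repeats of the largest cluster was 9046 nt long, and 710 intergenic peaks (13.01%) in 118 separate places matched it, with a median identity of 99.1%. All 710 had RNA in the same direction as the largest cluster, and 0 lay opposite. Their median was 8.25 mean reads per bin and the highest was 23.5, and 8 of them had 1 copy of the bin. Within this sequence, 80 peaks lay between 3500 and 4000 nt, 79 between 4500 and 5000 nt, and 78 each between 500 and 1000 and between 1500 and 2000 nt, but 19 in all beyond 7000 nt, as the plot of peaks along it shows. Its ends are direct repeats of 745 nt with an identity of 99.9%, so a peak in them can match either end. Some copies of the sequence were also shorter than 9046 nt. None of the 710 was a shared ASC-48h peak, which allows a share of up to 0.423% by 3 counts of the total and up to 0.518% by the exact interval, and 14 (1.97%) were found in any ASC-48h library. Among the other intergenic peaks these shares were 8.87% and 25.4%, and among the others with more than 10 copies 4.38% and 21.7%. The difference in being found in any ASC-48h library was -23.4 points against all others (interval -24.9 to -21.6) and -19.7 points against the others with more than 10 copies (interval -21.6 to -17.7). Depth was not known for any library, and cell type, cell number and library cannot be told apart in this comparison.

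**Figure D3:**
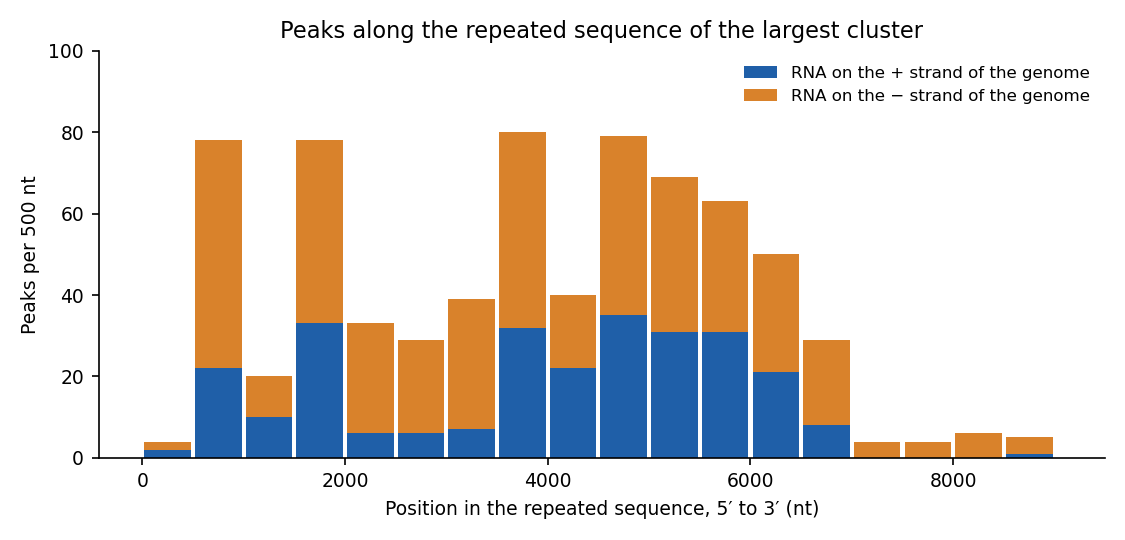
Number of intergenic peaks (y) per 500 nt of position along the 9046-nt repeated sequence, 5′ to 3′ (x), stacked by the genomic strand of the RNA. Windows reach 80 peaks between 3500 and 4000 nt and hold 4 to 6 between 7000 and 9000 nt. A peak in the direct repeats at the ends of the sequence can match either end.

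A further group shared its sequence with annotated exons. Of the 1252 intergenic peaks with 2 to 10 copies, 668 (53.4%) had another copy in an annotated exon on the strand of the RNA, 593 of them in a protein-coding gene and 32 in a pseudogene, over 279 genes in all. In 52 of the 668 the exon belonged to a mitochondrial gene, and no splice junction was examined. For 385 of the 668 the copy in the exon itself lay under a shared peak. The genes with the most such peaks, Eef1a1, Actg1, Eno1 and Hspa8, held 83 of the 668 (12.4%). Eef1a1, a translation elongation factor, had 25 on 7 chromosomes, the highest with 17 and 11 reads. Actg1, a cytoplasmic actin, had 20, and the highest at chr9:38883221-38883240 had 22 and 31 reads. Eno1, a glycolytic enolase, and Hspa8, a chaperone, had 19 each, with the highest at 13 and 14 reads and at 26 and 18 reads. Tuba1a and Zbed4 had 15 each, and Tuba1b had 13, among them the peak of 35 reads in each replicate on chromosome 12. Pkm2, a pyruvate kinase, had 11 and Rps4x, a ribosomal protein gene, 10. These genes were chosen after their values were seen. A read that matches the exon and the copy outside genes equally is placed at both, so it cannot tell them apart. Where the exon copy lay under no shared peak, the origin of the reads was not tested. Of the 668 peaks 7 (1.05%) were shared ASC-48h peaks, against 7.71% of all intergenic peaks and 3.08% of all 28078. In any ASC-48h library 122 (18.3%) were found, against 22.3% and 12.1%.

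Mitochondrial letters were found in 61 intergenic peaks, which share a 20-nt stretch with the mitochondrial chromosome, 1.12% of all (interval 0.856 to 1.43%) against 0.195% of the peaks inside genes, and 37 of the 61 formed the cluster chr1:24618401-24623000 (-). There 28 of the 37 (75.7%) were found in some ASC-48h library, against 22.3% of all intergenic peaks and 12.1% of all 28078. By library it was 14 in bio1 tech2, 9 in bio2 tech1, 26 in bio2 tech2 and none in bio1 tech1. Accordingly 0 were shared ASC-48h peaks. The bio2 tech2 list is the only one that goes down to 4 reads per bin. With both strands pooled, the highest of the 61, chr6:79768281-79768300, had 25 and 13 reads and a copy in mt-Rnr2, the large mitochondrial rRNA. Its RNA was on the + strand, whereas 51 of the 61 lay on the - strand, where values stop at 20 reads. The next were chr10:95540161-95540180 with 18 and 16 reads and chr10:95540481-95540500 with 17 and 13, both on the - strand and also with letters of mt-Rnr2. These last were shared ASC-48h peaks, and the second had 14, 13, 16 and 15.5 reads in the 4 libraries. Nuclear copies of mitochondrial DNA are known in the mouse genome. A 20-nt stretch was shared with an annotated small RNA gene in 647 intergenic peaks (11.9%, interval 11.01 to 12.7%) and in 6.61% of the peaks inside genes, a difference of 5.25 points (interval 4.35 to 6.19). Of the 647, 526 shared it with genes annotated as miRNA, among them AC116712.1 with 141, AC161342.1 with 96, AL645950.1 with 77 and Mir709 with 10. Another 39 shared it with U2 snRNA. Peaks of AC116712.1 and AC161342.1 include some with 44693 and 46099 copies, the numbers given above for B1-complement sequences. The median of the 647 was 39005 copies and 593 had RNA on the - strand. With both strands pooled, the highest were chr7:68628561-68628580 with 24 and 29 reads, chr10:28853401-28853420 with 23 and 27 and chr6:128789061-128789100 with 17 and 33. All had RNA on the + strand, where 54 of the 647 lay, and values on the - strand stop at 20 reads. These 3 carry stretches of the annotated miRNA genes AL663045.1, AL591611.1 and AC132253.1 and occur 533, 4815 and 438 times in the genome.

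Peaks at tRNA-like sequences were often found in ASC-48h. The B box is an element of the internal promoter of tRNA genes, here the capital letters of the sequences that follow with any base at the eighth, searched on the RNA strand and its complement within the peak and 100 nt on both sides. It is shown in capitals for the 3 highest peaks that have it, because it identifies the group.
chr5:31190501-31190520 (+): taggtcgctGGTTCGATTCCggctcgaa
chr1:173033161-173033180 (+): cgcggcccgGGTTCGATTCCcggtcagg
chr3:96213981-96214000 (+): agcaacctcGGTTCGAATCCgagtcacg
The motif began 22, 63 and 61 nt after the start of the bin. It lay on the RNA strand of 179 intergenic peaks (3.28%, interval 2.82 to 3.79%), on the complement of 1, and on the RNA strand of 0.199% of the peaks inside genes, against 0.798% of all 28078. The difference was 3.08 points (interval 2.63 to 3.59). The peak on chromosome 5 had 34 and 32 reads, and in RefSeq the tRNA genes n-TYgta9 and n-TAagc15 stand between the same neighbours, Tmem214 and Agbl5. The peak on chromosome 1 had 24 and 25 reads in C2C12 and 14, 18.5, 11 and 8.33 in ASC-48h. The peak on chromosome 3 had 31 and 18 reads in C2C12 and 32, 23.5, 12.7 and 10.3 in ASC-48h. All 3 were thus called in every library. Of the 179 peaks, 95 had RNA on the + strand and 84 on the - strand, with a median of 12 mean reads per bin. As shared ASC-48h peaks 125 were found (69.8%, interval 62.5 to 76.5%), and 170 (94.97%) were found in at least 1 ASC-48h library. Among intergenic peaks without the B box these shares were 5.61% and 19.9%, and the differences were 64.2 points (interval 57.1 to 70.5) and 75.1 points (interval 70.7 to 77.7). The ninth and the fifteenth families were of this kind, with 36 of 53 and 33 of 35 peaks holding the B box, and all 53 and all 35 were found in some ASC-48h library.

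A cluster of 16 peaks at chr17:39979941-39983620 (+) carried rRNA letters. It lay between AC168268.1 and AY036118, 1428 nt from the latter on the other strand, and in RefSeq the gene before AY036118 is Rn18s-rs5, an rRNA pseudogene. The authors had removed reads that match pre-rRNA before placing the rest. The bins of 3 peaks are shown in capitals, with the next 10 nt in lower case, because the second runs into letters known from the 5′ end of 18S rRNA and the first lies within it.
chr17:39983601-39983620 (+): TAGATAACCTCGGGCCGATCgcacgccccc
chr17:39983281-39983300 (+): CTTCGCTCGCGCTCCCTTACctggttgatc
chr17:39981261-39981280 (+): TGGCCGCTCCCGCGACGCGGgcctgcgccg
These peaks had 42 and 35, 26 and 29, and 29 and 20 reads in C2C12. Of the 16 peaks 15 had 1 genomic copy of the bin and 13 were uniquely placed. Their means ran from 7.75 to 38.5 reads per bin with a median of 15.125. All 16 were found in some ASC-48h library and 9 were shared ASC-48h peaks. At chr17:39982921-39982960 the ASC-48h values, 18, 21, 24.5 and 40 reads, were all above the C2C12 values of 16 and 14.5, and at chr17:39983281-39983300 the ASC-48h values, 8, 12.5, 10 and 8.33, were all below the C2C12 values. Of the 9 peaks of the cluster called in all 4 ASC-48h libraries, 1 had every ASC-48h value above both C2C12 values, 3 had every value below them, and in 5 the ranges overlapped. No scaling between libraries was possible, so this is a description of the lists. Copies of the rRNA genes that the assembly lacks are not counted in the number of genomic copies.

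The distance to gene ends was used to describe read-through, RNA that continues past the annotated end of a gene on its strand. The nearest gene boundary lay at a median of 12287 nt from an intergenic peak, and 1128 peaks (20.7%) were more than 50000 nt from any gene. Within 1000 nt past a gene end, 400 peaks (7.33%, interval 6.65 to 8.05%) had the gene's own strand and 88 (1.61%, interval 1.29 to 1.98%) the opposite one, a difference of 5.72 points (interval 4.96 to 6.498). Within 10000 nt these numbers were 1145 (21.0%) and 652 (11.9%), a difference of 9.03 points (interval 7.65 to 10.4). With protein-coding, lincRNA and antisense genes only, the 21.0% became 13.9%. Before gene starts, 263 peaks lay within 1000 nt with the gene's own strand and 130 with the opposite one. On the gene's own strand, the share past ends exceeded that before starts by 2.51 points (interval 1.62 to 3.41). Peaks with more than 10 copies had a difference past gene ends of 1.75 points within 1000 nt (interval 0.987 to 2.54).

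The excess of the gene's own strand over the other past gene ends was larger among the 530 uniquely placed peaks. Within 1000 nt, 75 (14.2%, interval 11.3 to 17.4%) lay past a gene end on its strand and 6 (1.13%, interval 0.417 to 2.45%) on the other, a difference of 13.02 points (interval 10.01 to 16.3). It was 12.1 points with RNA on the + strand (interval 8.17 to 16.5) and 14.3 points on the - strand (interval 9.68 to 19.6). Among those with no other intergenic peak within 1000 nt on the strand it was 11.99 points over 292 peaks (interval 8.21 to 16.3). Within 10000 nt the numbers were 181 (34.2%) and 93 (17.5%), a difference of 16.6 points (interval 11.4 to 21.7). At that distance the strands were unlike, with 8.95 points for RNA on the + strand (96 and 68 of 313, interval 2.05 to 15.7) and 27.6 points on the - strand (85 and 25 of 217, interval 19.7 to 35.2). Of the 68, 13 were peaks of the rRNA-like cluster on chromosome 17. Before gene starts, 73 uniquely placed peaks lay within 1000 nt with the gene's own strand and 21 with the opposite one. On the gene's own strand, the share past ends minus that before starts was 0.377 points within 1000 nt (interval -3.81 to 4.57). Within 500 nt it was -3.40 points (interval -6.87 to 0.0409), and within 10000 nt 6.42 points (interval 0.849 to 11.9). An excess of the gene's own strand was thus not particular to gene ends. Counts past ends and before starts can hold the same peak, as 5 uniquely placed peaks did within 1000 nt and 50 within 10000 nt. By the nearest boundary, peaks past a gene end on its strand had a median distance of 2063 nt, and those past a gene end on the other strand 10733 nt. In the plot of the nearest boundaries, whose distance classes are of unequal width, the highest bars before a start on the strand of the gene are those within 500 nt, with 55 peaks, and between 20000 and 50000 nt, with 48. Past an end on its strand the 4 classes up to 5000 nt hold 38, 33, 32 and 39 peaks. Whether these RNAs are read-through, longer 3′ ends or earlier starts than the annotation gives was not tested.

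**Figure D4:**
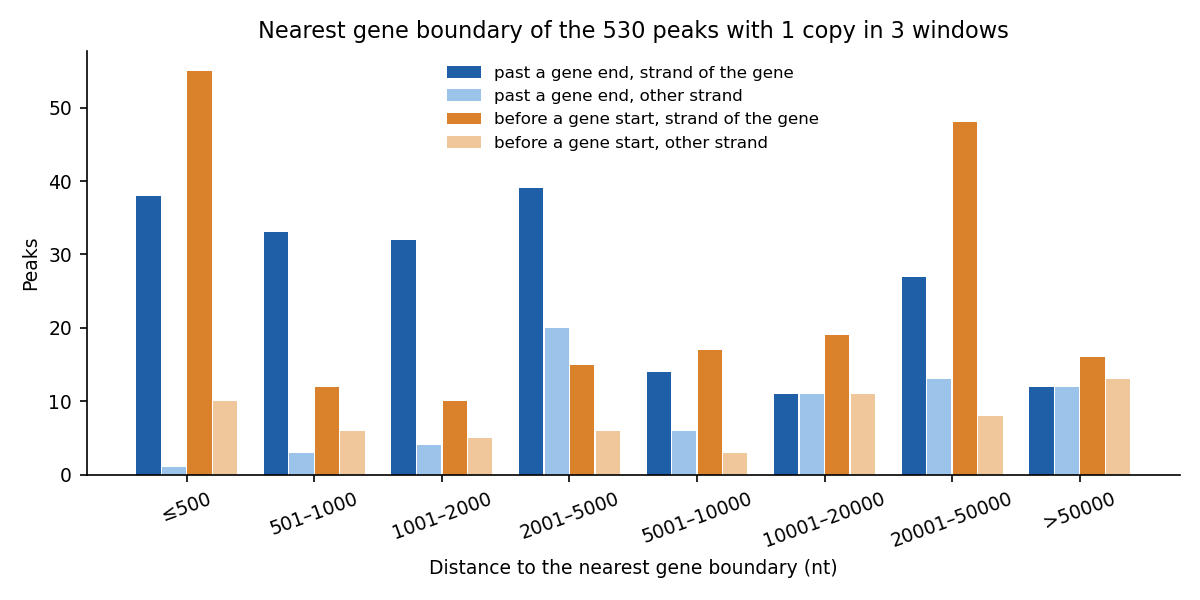
Number of the 530 uniquely placed intergenic peaks (y) by distance to the nearest gene boundary in nt (x, unequal classes), split by side and strand. Within 500 nt, 38 peaks lie past a gene end in its direction and 1 against it, and 55 and 10 lie before a gene start.

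Past the ends of genes, 636 genes had intergenic peaks within 10000 nt on their strand, but those with the most were beside sequences with several copies. Hist1h4m, a histone H4 gene, had 31, which are the chromosome 13 copy of the repeated sequence, and Gm17476 had 29, Ddx4 14, Gm10925 11 and Gm10222, Gm4245, Gm8898, Gm10580 and Gm3756 10 each, followed by Akd1 with 9. Among all these peaks 1 had 1 genomic copy, past Gm3756, and none was a shared ASC-48h peak. The peaks past Gm10925 and Gm10222 are those of the mitochondrial-like cluster on chromosome 1, and the Ddx4 peaks include the Tuba1a-like peak of 19 and 18 reads. Of the 1145 peaks past gene ends, 711 were assigned to a protein-coding gene and 237 to a pseudogene.

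Uniquely placed peaks lay past the ends of 112 genes, 80 of which had 1 peak and 19 of which had 3 or more. The genes named next were chosen after their values were seen. H1f0, a replacement linker histone annotated as a pseudogene at chr15:78859152-78859689 (+) in the GENCODE release used and as protein-coding in RefSeq, had 8 peaks with 1 copy, 7 of them uniquely placed, between 52 and 772 nt past its end, with 19 and 29 reads at the highest. At 732 nt there were 22 and 15 reads, and the other 6 had between 6 and 11 reads in every replicate. The same 8 peaks lay 804 to 1544 nt before Gcat on its strand. Their cluster also held peaks 112 and 172 nt before the start of H1f0 on its strand, with 12.5 and 10.5 reads and with 13 and 7 reads. Purb, which encodes a single-stranded DNA-binding protein known as a transcriptional repressor in muscle, had 6 peaks between 315 and 2435 nt past its end, which also lay 41 to 2181 nt before the annotated miRNA gene AL646020.1 on its strand. Their reads were 11 and 8, 13 and 13, 11 and 11, 8 and 7, 16 and 10, and 9 and 12.5 in order of distance. Rbm15, a subunit of the m6A methyltransferase complex, had 6 peaks between 203 and 1743 nt, the highest with 12 and 8 reads at 683 nt. Sox11, a transcription factor, had 4 peaks between 262 and 1302 nt with 10 and 15 reads at the highest. Zim1, an imprinted zinc finger gene, had 5 peaks between 1334 and 3454 nt. In RefSeq, Zim2 stands between the neighbours of their cluster, Olfr1350 and Zim1, and its position was not compared with the peaks. Mmp14, a membrane-bound matrix metalloproteinase, had 3, of which chr14:55060841-55060860 at 746 nt had 25 and 26 reads and chr14:55060501-55060520 at 406 nt had 20 and 18. Farther from their gene were the 4 peaks of Srcap at 5391 to 6031 nt, the highest with 20 and 10.5 reads, and the 4 of Aak1 at 4403 to 6863 nt with 13 and 10. Peaks of these genes were in no shared ASC-48h list.

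Before gene starts, a cluster of 7 peaks with 1 copy lay 137 to 677 nt upstream of Tsc22d2, a leucine zipper protein, on its strand. The highest, chr3:58218821-58218840, had 23 and 28 reads, and the nearest had 13 in each replicate. A peak 105 nt before U2af2, the large subunit of the splicing factor U2AF, at chr7:5013621-5013640 had 22 and 20 reads. When the bins were matched to RefSeq promoter sequences of GRCm38.p6, which run from 250 nt before to 50 nt after a gene's start, 18 of the 1-copy intergenic peaks lay in one, 12 on the strand of the gene. On its strand were peaks of Tnpo2 with 12 reads in each replicate, Tsc22d1 with 12 and 9, and Zbtb18 with 9 in each. On the opposite strand were a peak of Kpnb1, which encodes importin beta, with 20 and 17 reads 86 nt upstream, and peaks of Polg, the mitochondrial DNA polymerase, with 14 and 16 reads at 53 nt and 10 in each at 93 nt. These genes were likewise chosen after their values were seen.

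Clusters of 1-copy peaks also lay where the gene set used here holds no gene. There were 12 clusters with at least 5 peaks of 1 copy. Upstream of Mir23a, chr8:86725001-86729660 (+) held 17 peaks, 13 with 1 copy, from 2757 to 7397 nt before it on its strand. Its reads ran from 6 to 24, with 16 and 24 at the highest, 17 in each replicate at chr8:86726541-86726560 and 16 and 15 at the peak nearest to Mir23a. On chromosome 15, before Mirlet7c-2 and on its strand, clusters of 11, 6 and 5 peaks at 85491261, 85500801 and 85507481 all had 1 copy, and RefSeq places the lncRNA D130051D11Rik between the same neighbours. The highest there, chr15:85494861-85494880, had 14 and 21 reads. Another 8 peaks with 1 copy lay 13 to 6373 nt before Mirlet7c-2, with 13 and 14 reads at the highest. At chr13:28509261-28511660 (-) 14 peaks, all with 1 copy, had 6 to 15 reads, with 11 and 13 at the highest mean, and RefSeq has Gm34385, Gm3821 and Gm40841 between the same neighbours. Summed over the peaks, these clusters had similar reads in the replicates: 167 and 186 on chromosome 8, 104 and 116 in the largest on chromosome 15, and 119.5 and 121 on chromosome 13. None held a shared ASC-48h peak.

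Of the 5459 intergenic peaks 421 (7.71%, interval 7.02 to 8.45%) overlapped a shared ASC-48h peak, and 418 overlapped a peak in each of the 4 lists directly. Inside genes the share was 1.97% (interval 1.79 to 2.16%), and over all 28078 peaks it was 3.08%. The difference from genes was 5.74 points (interval 5.04 to 6.502). The 7.71% became 2.95% and 4.11% when replicate 1 or replicate 2 of C2C12 was left out, 13.9% and 20.9% at a deposited p of at most 0.0001 and 0.00001, and 11.8% without the G run filter. In any of the 4 libraries 1220 were found (22.3%), against 9.64% inside genes and 12.1% of all. By library, 563 were found in bio1 tech1, 742 in bio1 tech2, 692 in bio2 tech1 and 986 in bio2 tech2. The difference from genes in shared ASC-48h peaks turned with the number of copies. Among 1-copy peaks the share of shared ASC-48h peaks was 14.6% outside genes and 0.924% inside, a difference of 13.7 points (interval 11.7 to 16.03). Among peaks with more than 10 copies it was 3.44% outside and 4.78% inside, a difference of -1.33 points (interval -2.31 to -0.369). Peaks with the B box made up 125 of the 421. The plot by group shows the order of the shares of shared ASC-48h peaks, from tRNA-like peaks and the chromosome 17 cluster at the top to the long repeated sequence at 0. Of the 181 uniquely placed peaks within 10000 nt past a gene end, 7 (3.87%) were shared ASC-48h peaks and 12 (6.63%) were found in any ASC-48h library.

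**Figure D5:**
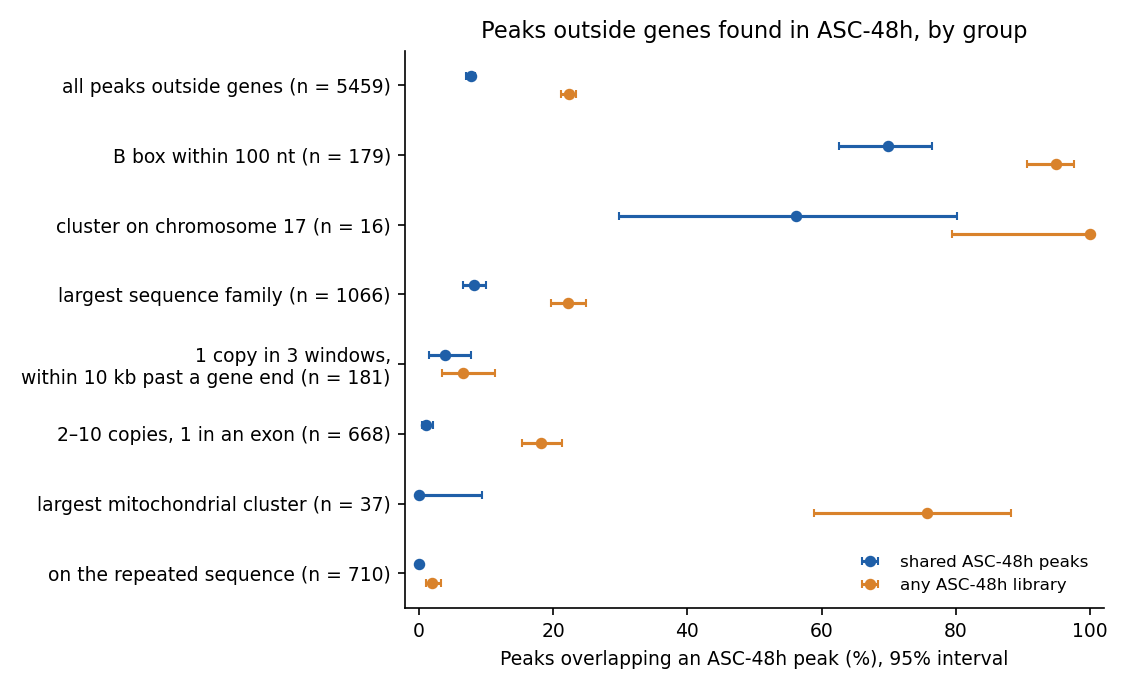
Share of intergenic C2C12 peaks (x, percent) that overlap a shared ASC-48h peak or a peak of any ASC-48h library, for all peaks and 7 groups (y, with n), with 95% Clopper-Pearson intervals. Peaks with a B box stand at 69.8% and 94.97%, all intergenic peaks at 7.71% and 22.3%, and those on the repeated sequence at 0 and 1.97%.

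The letters GGACT, the commonest form of the m6A consensus, were searched in the peak and 20 nt on both sides, on the RNA strand and on its complement. The 4 highest uniquely placed peaks with it are shown, with GGACT in capitals.
chr12:31703041-31703060 (+): aagtacgcctgaGGACTtcaggaaccatg
chr7:28669201-28669220 (+): atggcggtagatGGACTtgtcttctgcag
chr1:183986181-183986200 (+): ggttaaagcgatGGACTgctaatccactg
chr6:48479461-48479480 (+): ccttcgtctgaaGGACTtgagcgccgtca
The motif began 27 nt after the start of the bin in the first, 10 and 14 nt before it in the next, and 6 nt after it in the last. The third, on chromosome 1, also held the B box and was a shared ASC-48h peak. GGACT lay on the RNA strand of 342 intergenic peaks (6.26%, interval 5.64 to 6.94%) and on the complement of 269 (4.93%), a difference of 1.34 points (interval 0.475 to 2.20). Inside genes the shares were 5.90% and 5.20%, a difference of 0.703 points (interval 0.281 to 1.13), and over all 28078 peaks 5.97% had it on the RNA strand. Intergenic peaks and those inside genes differed by 0.363 points (interval -0.326 to 1.10), an interval that includes 0. Among peaks with more than 10 copies the shares were 6.26% outside and 3.96% inside genes, a difference of 2.30 points (interval 1.23 to 3.38), and on the complement 4.94% and 3.14%. Searching the peak alone gave 1.94% of the intergenic peaks, and 100 nt on both sides 21.5%. Among the 1-copy intergenic peaks 6.73% had it on the RNA strand and 5.44% on the complement, with an interval of the difference from -0.812 to 3.40 points. The intervals for the RNA strand against the complement do not use the fact that both shares come from the same peaks. Methylation itself was not measured in these libraries.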

How the data were processed

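The members, the gene and sequence groups and the distances examined were chosen with earlier results of these data known. Per the labels and the study's methods, the authors trimmed reads with cutadapt 1.15, removed those matching mouse pre-rRNA with Bowtie 1.2.3, placed the rest on mm9 at up to 10 positions per read, and called peaks in each library with Piranha in bins of 20 nt. The Piranha settings are stated for ASC-48h, and those for C2C12 are not given in the sources used here. The deposited signal is the number of reads per bin, not normalized and averaged over the bins of wider peaks, and the deposited p-value is Piranha's within the library. Library totals are unknown, so no depth, scaling or count model was used, and intervals cover counting error only.

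Overlaps, copies (occurrences of the central 20 nt in NCBIM37, which is mm9, on both strands), gene distances (GENCODE vM1, 37310 genes) and clusters were computed with pandas 2.3.3, numpy 2.4.6, scipy 1.17.1 and statsmodels 0.14.6 under Python 3.11.15, and direct repeats and matches of at least 100 nt and 80% identity with blastn 2.17.0. Plots used matplotlib 3.10.9. RefSeq tables of GRCm38.p6 served for names, neighbour order and promoter sequences. On simulated data 6 of 6 functions gave the known answers. Named were the 10 highest members, the 10 largest clusters, the 10 genes with most members within 10000 nt past their end, the 5 commonest 20-nt sequences and the 3 highest members with a B box, a small RNA stretch or a mitochondrial stretch. There were 80 alternatives, and another 18 were chosen after seeing the data. No condition was tested against another.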

Additional observations from a re-analysis of the deposited data

Results flagged for a closer look

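In 21 sets of values of the 4 ASC-48h libraries, a library far from the other 3 was looked for, measured as its gap to the nearest of the others over the whole range. The sets were the reads per bin of the 20 named peaks called in all 4 libraries, 9 of them in the rRNA-like cluster on chromosome 17, and the count of C2C12 intergenic peaks found in each library. Chance marks about 1 in 20 such groups of separate samples, but the 4 libraries are 2 biological replicates with 2 technical replicates each and the 9 peaks lie in 1 cluster. Of the 21 sets 3 were marked, all 3 in that cluster. At chr17:39981301-39981340 bio1 tech2 had 28 reads and the other 3 libraries 14 each, a ratio of 1. At chr17:39980941-39980980 bio1 tech1 had 6 reads against 17, 15.5 and 16, a ratio of 0.864. At chr17:39980481-39980500 bio1 tech1 had 13 reads against 5, 5.5 and 5, a ratio of 0.938. The library that stood apart was thus high at 2 of the peaks and low at the other, and in all 3 it was a technical replicate of bio1.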

How the results depend on the processing

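No paired analysis was possible by replicate number because the results are counts and shares of peaks with no test between groups. Pairing within peaks was not used. Comparisons of a gene's own strand with the other, of gene ends with starts, and of GGACT with its complement take both shares from the same peaks. Their intervals treat these shares as coming from separate peaks. Of 98 alternatives, 51 kept a result within a set limit and 47 moved it beyond. For shares the limit was the SD between the replicates taken alone. For the number of peaks, with 12 alternatives, it was a fixed ratio to the main number, and 8 stayed within it. The alternatives added after seeing the data are the ones by strand, by unique placement and without clusters of 10 or more peaks. Taken from 1 replicate alone, the ranges were 10980 to 15822 peaks, 18.5 to 22.4% outside genes, 18.7 to 20.04% within 10000 nt past a gene end, 15.6 to 18.7% with 1 copy, 27.6 to 34.9% in clusters, 2.95 to 4.11% shared with ASC-48h and 4.80 to 6.01% with GGACT. A deposited p of at most 0.0001 in both replicates left 1929 peaks, of which 22.2% lay past a gene end, 21.1% had 1 copy, 26.4% were in clusters and 13.9% were in ASC-48h. At 0.00001 it left 931 peaks, with 22.4% outside genes, 22.1% with 1 copy, 14.1% in clusters and 20.9% in ASC-48h. Peaks outside genes made up 24.1% when only genes on the strand of the RNA counted, 16.6% with genes extended by 1000 nt and 25.2% with protein-coding, lincRNA and antisense genes only, and the share past a gene end was then 14.7% and 13.9% under the last 2. That share was 26.6% for 1-copy peaks and 34.2% for uniquely placed ones, and 7.33%, 15.2% and 45.0% within 1000, 5000 and 50000 nt. The 1-copy share was 28.5% with RNA on the + strand and 11.7% on the - strand, and 41.5% had at most 10 copies. Clusters held 17.9% of 1-copy and 28.5% of uniquely placed peaks when these alone were clustered, and 17.7% and 42.8% of all peaks at gaps of 200 and 5000 nt. The share in ASC-48h was 11.8% without the G run filter, 14.6% for 1-copy and 9.62% for uniquely placed peaks, 9.55% with RNA on the + strand, 6.45% on the - strand, 8.65% without clusters of 10 or more, 22.3% in any library and 5.97% at 6 or more reads in all 4. GGACT lay in 1.94% of the peaks alone and in 21.5% with 100 nt on both sides.

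Depth is unknown, and peaks under 10 reads, the larger part of the intergenic peaks, were the least often found again. Reads that match several copies equally cannot be assigned to 1 of them, and copies were counted over 20 nt and not over the read. No value over 20 reads was listed with RNA on the - strand. Gene boundaries for membership and distances are those of GENCODE vM1, and later ones entered only through the RefSeq names, neighbour order and promoter sequences. The intervals treat peaks as independent, which clustered and copied peaks are not. Those of differences treat both shares as coming from separate peaks, even where the peaks are the same.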
